A study of Mus musculus with 12 samples.

Results

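A set of 9 genes of cell death and inflammatory caspase signalling was followed in islet RNA of NOD and NOD.B10 mice. They were taken by name as Bcl2, Mcl1, Bax and Bcl2l11 of the BCL2 family, the death receptor Fas with the caspase Casp8, the inhibitor of NF-kB signalling Tnfaip3, and the inflammatory caspases Casp1 and Casp4. These are 9 of 17016 genes that have a probe on the array, and they are read by 12 of its 41174 non-control probes. The mice were female and 12 weeks old, 6 of the diabetes-prone strain NOD and 6 of NOD.B10, the healthy control strain, which carries another MHC haplotype on the NOD background. Islets were cut by laser from stained frozen sections, at least 40 islets per the study's design text, so each sample mixes endocrine cells with any vessel, acinar or immune cell inside the cut. The islet RNA was amplified and labelled with Cy5, and a universal mouse RNA labelled with Cy3 served as the reference on each of 12 arrays, 1 array per mouse. The comparison asks which of these genes are at another level in the islets of NOD mice.

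In the mitochondrial pathway of apoptosis, BH3-only proteins such as BIM, the product of Bcl2l11, bind the survival proteins BCL2 and MCL1 and release the pore former BAX. In the extrinsic pathway, FAS and other death receptors recruit caspase-8, while A20, the product of Tnfaip3, limits the NF-kB signalling that TNF receptors start. Caspase-1 and caspase-4 (also named caspase-11 in the mouse) process interleukins or cleave gasdermin D in inflammation and are inducible in myeloid cells. Both leukocytes and beta cells use these pathways.

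Of the 9 genes, 5 were higher in NOD islets, namely Casp4, Tnfaip3, Bcl2l11, Bcl2 and Casp1, and 0 were lower. Mcl1 was tested and did not pass, and Bax, Casp8 and Fas were too dim to test. Testing required Cy5 well above background, as marked by the scanner software, on 4 or more of the 12 arrays, which 6 of the 9 genes met against 23% of all genes with a probe. Of the 3920 genes tested, 18.8% were called higher and 18.1% lower in NOD by limma at a Benjamini-Hochberg adjusted p under 0.05. In 4 of these 5 genes no NOD.B10 array rose well above background, and a gene that passes the filter through NOD alone had to be the brighter one there. Of all genes tested, 1220 were dark in this way on NOD.B10 arrays, and 349 of these 1220 (8.9% of all genes tested) were called higher.

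The islet channel was brighter on NOD arrays, which bears on each value given here. The share of spots with Cy5 well above background was 14.0 ± 2.55% for NOD (SD, n = 6) and 6.21 ± 1.37% for NOD.B10, a difference with an exact 2-sided permutation p of 0.00216, the smallest that 6 against 6 arrays can give. For the reference channel the same shares were 50.4 ± 1.94% and 50.1 ± 2.27% (exact permutation p = 0.781). Over 1082 probes bright on all 12 arrays, net Cy5 was 3.15-fold higher at the median NOD array than at the median NOD.B10 array. Slide 1 held NOD replicates 1 and 2, slide 4 held NOD.B10 replicates 2 and 3 and was scanned on another day, and slides 2 and 3 held 2 mice of either strain each. Beta cell identity of the tissue was visible in both strains, as Ins1, Ins2, Iapp and G6pc2 were well above background on all 12 arrays, while the transcription factor genes Pdx1 and Mafa and the hormone gene Ucn3 were so on none. Of 22 leukocyte markers 15 were tested and all 15 were higher in NOD. Of the 15, 12 were dark on all NOD.B10 arrays, against 31.1% of all genes tested. The direction of these 12 was in part fixed by the filter. The mean log2 ratio of the 15 ran from 1.26 to 3.01 on NOD arrays and from -0.21 to -0.09 on NOD.B10 arrays. The T and B cell receptor chains Cd3e and Cd79a were well above background on 0 arrays, while the chains Cd3d and Cd79b were so on 6 NOD and 0 NOD.B10 arrays. Of 11 beta cell markers 6 were tested and 3 were lower, and of 13 acinar markers 7 were tested and 5 were lower. These calls depend on the normalization. With arrays centred on their median, 0 of the 6 and 0 of the 7 were lower, and 0 of all 3920 genes tested. The part of leukocyte number, array brightness and tissue composition in the results on the 9 genes was not tested, and in such mixed samples a change in the number of cells and a change of RNA per cell cannot be told apart.

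Values are log2 ratios of islet to reference signal after background correction and loess normalization, which sets each probe against others of like mean intensity on the same array. A ratio of 0 therefore marks the trend of the array and not equal signals in both channels. For probes dark in Cy5 it marks no level at all, and a difference between strains for such a gene is given as fitted, beside the net Cy5 signal in scanner units (spot minus local background) and a lower bound of the fold in Cy5. For the bound, a dark NOD.B10 array is given its own signal or, if that is higher, the 10th percentile of the signals it holds well above background.

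**Figure D1:**
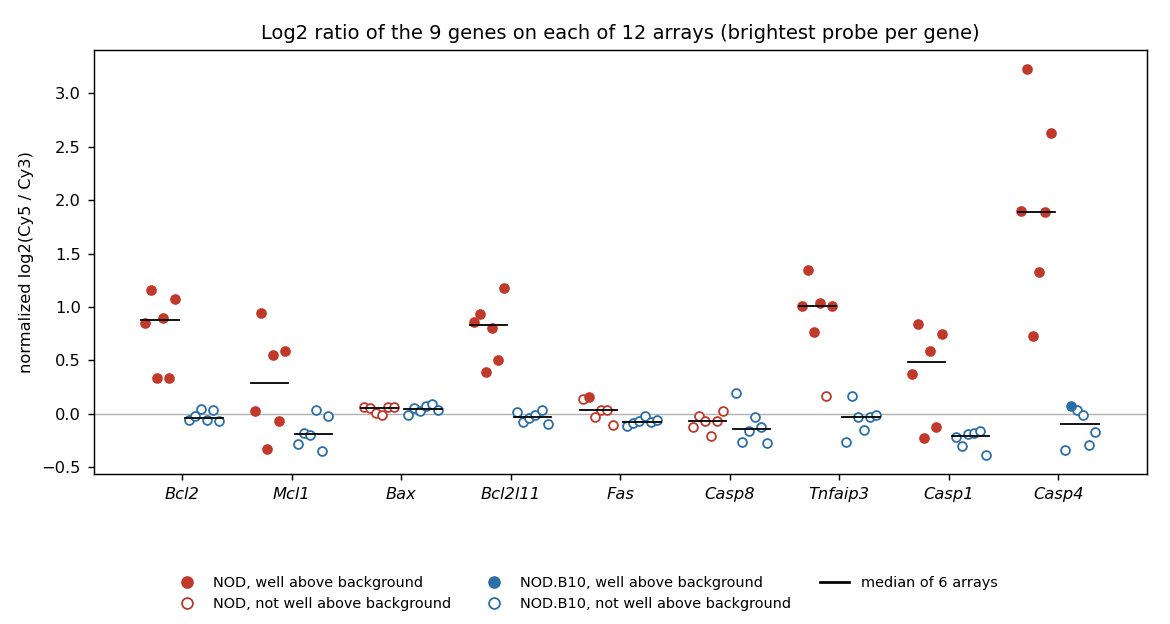
Normalized log2 ratio of Cy5 (islet) over Cy3 (reference) for the brightest probe of each of the 9 genes, 1 point per array, filled where Cy5 was well above background, with the median of 6 arrays as a line. NOD points of Bcl2, Bcl2l11 and Casp4 all lie above the NOD.B10 points, while those of Bax and Casp8 overlap between strains.

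Bcl2, the founding survival gene of its family, was read by a probe spotted 10 times on each array. Its log2 ratio was 0.33 at the lowest, 0.87 at the median and 1.16 at the highest NOD array, and -0.07, -0.04 and 0.04 in NOD.B10. The strains did not overlap, and the lowest NOD arrays were replicates 3 and 5. Net Cy5 ran from 13.5 to 50.5 scanner units in NOD and from 0.778 to 4.19 in NOD.B10. Over the repeated spots, 55 of 56 used were well above background in NOD and 0 of 55 in NOD.B10, so the call does not rest on single spots. The spots of an array spread with an SD of 3.02 to 6.94 scanner units. The fitted difference was log2 0.80 ± 0.15 (SE, n = 6 per strain, adjusted p = 0.00122, limma), and the bound in normalized Cy5 was 1.15-fold. A further Bcl2 probe, for the transcript NM_177410 where the first was designed on NM_009741, was well above background on no array and gives no level for that transcript. Its difference was 0.04 ± 0.05 in a separate fit over all non-control probes.

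Mcl1, a short-lived survival protein on which many leukocytes depend, moved in the same direction with more spread. The log2 ratio of its brighter probe was -0.33, 0.29 and 0.94 at the lowest, median and highest NOD array and -0.35, -0.19 and 0.04 in NOD.B10. NOD replicates 2, 4 and 6 lay above all NOD.B10 arrays, and replicates 1, 3 and 5 lay among them. All 6 NOD arrays and 0 of 6 NOD.B10 arrays were well above background, with net Cy5 of 20.0 to 160 against 3.5 to 10.0 units. The difference of 0.45 ± 0.19, with a bound of 1.30-fold, did not pass (adjusted p = 0.0847, limma). It did pass without NOD replicate 3 (0.57, adjusted p = 0.0197, limma). The other Mcl1 probe was above background on 5 NOD arrays and no NOD.B10 array. In a separate fit over all non-control probes it differed by 0.36 ± 0.10 and did not pass (adjusted p = 0.0584, limma). The brighter probe did not pass there either (adjusted p = 0.238). The mean of both probes stood at 0.41 (adjusted p = 0.0409), and over all alternatives the adjusted p of Mcl1 ran from 0.00262 to 0.980.

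Bax, which forms the pore in the mitochondrial membrane, could not be read. Its probe, also spotted 10 times, was well above background in neither channel on any array, and none of 52 used spots in NOD or 58 in NOD.B10 was. Net Cy5 ran from -0.95 to 3.11 units in NOD and from -0.2 to 2.95 in NOD.B10. The reference RNA was as dark at this probe, with net Cy3 of 9.56 units at most, so the probe gives no evidence on Bax in either strain.

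Bcl2l11, the BH3-only activator BIM that ends the life of many lymphocytes, was higher in NOD. Its log2 ratio was 0.39, 0.83 and 1.18 at the lowest, median and highest NOD array and -0.10, -0.03 and 0.04 in NOD.B10. The strains did not overlap, with replicate 6 the highest and replicate 3 the lowest NOD array. Net Cy5 was 24 to 81 units in NOD and 1.5 to 6.0 in NOD.B10, and all 6 NOD and 0 NOD.B10 arrays were well above background. The fitted difference was 0.81 ± 0.13 (adjusted p = 0.000446, limma) and the bound at least 1.51-fold. A further probe for the same accession was well above background on no array and in neither channel.

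In the death receptor branch little could be measured. Fas, the CD95 receptor, was well above background on 1 NOD array, replicate 2, where 5 of its repeated spots were marked so, and on no NOD.B10 array. Over all repeated spots 9 of 57 used in NOD and 0 of 56 in NOD.B10 were well above background. Its log2 ratio was -0.11, 0.04 and 0.16 at the lowest, median and highest NOD array and -0.11, -0.07 and -0.02 in NOD.B10, so 4 of 6 NOD arrays lay above all NOD.B10 arrays. Net Cy5 was 1.15 to 8.95 units in NOD and -0.7 to 1.0 in NOD.B10. Fitted without the filter, over 17016 genes of which 4.07% were called higher and 8.19% lower, Fas stood at 0.11 (adjusted p = 0.224, limma). Casp8, the initiator caspase downstream of FAS, was well above background in the reference channel on all 12 arrays and in the islet channel on none. Its ratio ran from -0.21 to 0.02 in NOD and from -0.28 to 0.19 in NOD.B10, with 0.03 as the unfiltered difference (adjusted p = 0.900). Neither gene was called, and at signals this near background the size of a difference could not be read.

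Tnfaip3, which encodes the ubiquitin-editing enzyme A20 and is itself a target of NF-kB, was higher in NOD. Its log2 ratio was 0.16, 1.01 and 1.35 at the lowest, median and highest NOD array and -0.27, -0.03 and 0.16 in NOD.B10. In 5 of 6 NOD mice it lay above all NOD.B10 mice, and replicate 5 alone fell among them. Net Cy5 was 8.5 to 54.0 units in NOD, with 5 arrays well above background, and -3.0 to 5.0 in NOD.B10, with none. The fitted difference was 0.94 ± 0.17 (adjusted p = 0.000968, limma) and the bound at least 1.17-fold. With arrays centred on their median in place of loess, a step that moves the median of all tested genes to 0.44, Tnfaip3 stood at 0.47 and did not pass (adjusted p = 0.0631), which is 0.03 above that shift. Over all alternatives its adjusted p ran from 1.69e-05 to 0.953.

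The inflammatory caspases held the largest fitted difference among the 6 tested genes, that of Casp4. Casp4, the sensor of cytosolic lipopolysaccharide, had log2 ratios of 0.73, 1.89 and 3.23 at the lowest, median and highest NOD array and of -0.34, -0.09 and 0.07 in NOD.B10. The strains did not overlap, replicate 2 being the highest and replicate 3 the lowest NOD array. Net Cy5 was 56.5 to 540 units in NOD and 1.5 to 11 in NOD.B10, where 1 array, replicate 2, was well above background. The fitted difference was 2.07 ± 0.33 (adjusted p = 0.000509, limma). Because only 1 of 6 NOD.B10 arrays measured it, its size in NOD.B10 rests mostly on signals near background.

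Casp1, the caspase of the inflammasome that matures interleukin-1 beta, lies next to Casp4 in the genome with 0 annotated genes between them. Its log2 ratio was -0.22, 0.48 and 0.84 at the lowest, median and highest NOD array and -0.39, -0.21 and -0.16 in NOD.B10. In 5 of 6 NOD mice it lay above all NOD.B10 mice, with replicate 3 among them and replicate 5 close by. Net Cy5 had a median of 44 and a highest value of 108 units in NOD, all 6 arrays well above background, and ran from -4.0 to 4.0 in NOD.B10, none of them so. The fitted difference was 0.61 ± 0.18 (adjusted p = 0.0169, limma) and the bound at least 1.37-fold. The call was lost with slide fixed in the model (0.49, adjusted p = 0.162) and without slide 4 (0.61, adjusted p = 0.0584), and over all alternatives the adjusted p ran from 4.7e-06 to 0.916.

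The promoters of both caspases and of Tnfaip3, an NF-kB target, are shown for their matches to the NF-kB consensus. The 250 bases before an annotated start of each gene are from RefSeq on mouse assembly GRCm38.p6, at chr9:5298267-5298516 (plus strand) for Casp1, chr9:5308599-5308848 (plus strand) for Casp4 and chr10:19015411-19015660 (minus strand) for Tnfaip3. Capitals mark matches to the NF-kB consensus on either strand.
Casp1: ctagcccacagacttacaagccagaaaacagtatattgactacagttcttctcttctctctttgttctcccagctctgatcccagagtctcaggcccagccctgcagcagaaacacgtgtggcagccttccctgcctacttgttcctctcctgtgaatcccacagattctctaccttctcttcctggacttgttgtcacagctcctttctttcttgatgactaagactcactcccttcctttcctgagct
Casp4: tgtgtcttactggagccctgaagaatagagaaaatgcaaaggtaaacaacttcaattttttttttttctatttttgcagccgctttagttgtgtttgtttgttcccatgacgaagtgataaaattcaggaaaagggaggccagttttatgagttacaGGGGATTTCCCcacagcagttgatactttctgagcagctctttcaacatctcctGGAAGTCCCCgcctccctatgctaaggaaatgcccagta
Tnfaip3: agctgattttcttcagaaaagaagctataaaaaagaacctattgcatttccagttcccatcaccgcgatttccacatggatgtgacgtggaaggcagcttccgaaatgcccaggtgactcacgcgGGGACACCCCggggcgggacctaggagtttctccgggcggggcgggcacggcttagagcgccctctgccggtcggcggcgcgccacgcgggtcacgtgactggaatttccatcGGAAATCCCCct
The Casp4 window holds 3 matches, of which 2 overlap at -93 to -83 and the third lies at -39 to -30, counted from the start site. The Tnfaip3 window holds 2, at -125 to -116 and at -12 to -3, while the window of a further annotated Tnfaip3 start, at chr10:19011964-19012213 (minus strand), holds 0. Neither the Casp1 window nor those of Bcl2, Bcl2l11, Mcl1, Bax, Casp8 and Fas held a match, and the consensus matched 7.25% of 32817 promoter windows of this length. The interferon motif GAAANNGAAA, found in 2.97% of windows, matched no window of the 9 genes, and the STAT motif TTCNNNGAA, found in 7.01%, matched that of Fas alone. A match describes letters in a window and is no evidence of binding, and a window without one says nothing of the factor.

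**Figure D2:**
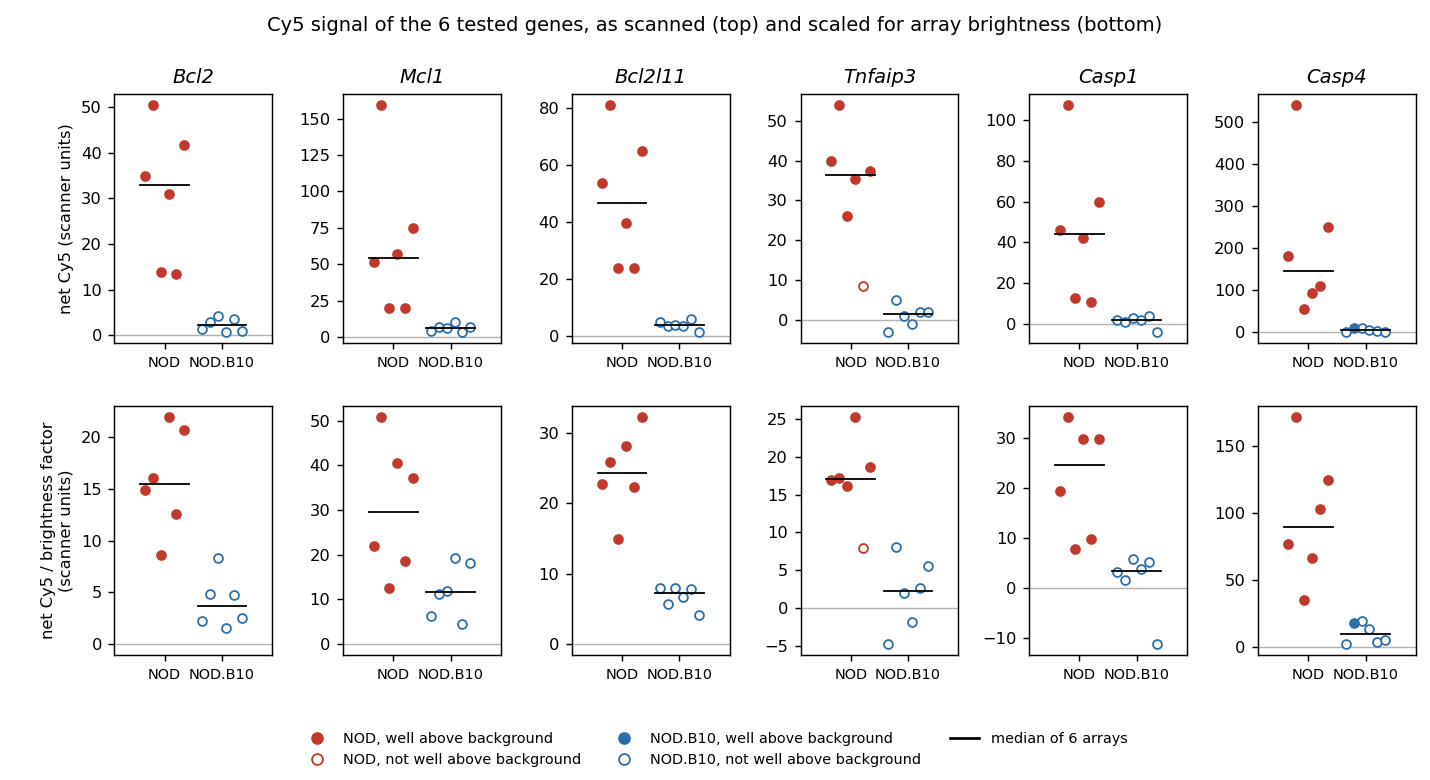
Net Cy5 signal (spot minus local background, scanner units) of the 6 tested genes on each array, as scanned in the upper row and divided by the brightness factor of the array in the lower row, with filled points well above background and lines at the median of 6 arrays. After scaling, the strains stay apart for Bcl2, Bcl2l11, Casp1 and Casp4 and overlap for Mcl1 and Tnfaip3.

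Because NOD arrays were brighter, the net Cy5 signals were also compared after division by a brightness factor for each array, the median of its net signals over the 1082 probes bright on all arrays relative to their geometric means. This measure was chosen after the values were seen and has no test. On the log2 ratio 3 of the 6 tested genes did not overlap between strains in this direction, against 9.52% of all genes tested, and 0 lay wholly below NOD.B10, against 7.42%. On the scaled net signal 4 did not, against 8.39%. Of these genes Casp4 alone was well above background on a NOD.B10 array, and among the 1220 tested genes dark on all NOD.B10 arrays the shares were 15% on the ratio and 10.2% on the scaled signal. Separation of such genes is in part fixed by the filter. For Casp4 the scaled signal was 35.2, 90.0 and 172 units at the lowest, median and highest NOD array and 2.38, 9.48 and 19.8 in NOD.B10. For Bcl2l11 it was 14.9, 24.3 and 32.3 against 4.16, 7.25 and 7.94, and for Casp1 7.78, 24.7 and 34.3 against -11.1, 3.50 and 5.94. Bcl2 was apart by a small margin, with 8.60 at the lowest NOD array and 8.30 at the highest NOD.B10 array, and medians of 15.5 and 3.62. Tnfaip3 overlapped through NOD replicate 5 (7.92 against up to 8.02 in NOD.B10, medians 17.1 and 2.29), and Mcl1 overlapped with medians of 29.5 and 11.6.

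The brightness also sets what could be seen in NOD.B10. On NOD.B10 arrays the 10th percentile of net Cy5 among probes well above background was 8.5 to 10.0 units. Put at the median brightness of NOD.B10 arrays, the NOD median of Bcl2 comes to 8.86 units and that of Tnfaip3 to 9.79, so NOD-like levels of these genes would lie at that limit. Those of Bcl2l11 (13.9), Casp1 (14.1), Mcl1 (16.9) and Casp4 (51.5) lie above it. The medians measured for these 4 genes in NOD.B10 were 3.75, 2.0, 6.25 and 5.0 units. The factor comes from probes bright on all arrays and may not hold for dim ones, and the part of brightness was not tested. A fit that carries the Cy5 share of each array as a covariate, on which the strains do not overlap, called 0 of the 6 genes by limma (0 at an unadjusted p under 0.05), and 3 of 3920 genes in all. Casp4 then stood at 0.72, Bcl2l11 at 0.30, Tnfaip3 at 0.12, Bcl2 at 0.06, Mcl1 at -0.07 and Casp1 at -0.24.

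The sizes of the 5 genes called higher depend on the scaling, while all 5 kept their direction under the scalings given here. Bcl2 stood at log2 3.78 with the scanner's processed ratio, at 1.35 with an offset of 16, and at 0.34 with Cy5 alone, where the median of all tested genes moved to 0.09. With median centring it stood at 0.82, which is 0.39 above the shift of all genes. The processed ratio, which moved that median to 0.48, gave 3.05 for Bcl2l11, 3.50 for Casp1, 3.88 for Tnfaip3 and 4.75 for Casp4. Cy5 alone gave 0.46 for Bcl2l11, 0.47 for Casp1, 0.39 for Tnfaip3 and 1.16 for Casp4.

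**Figure D3:**
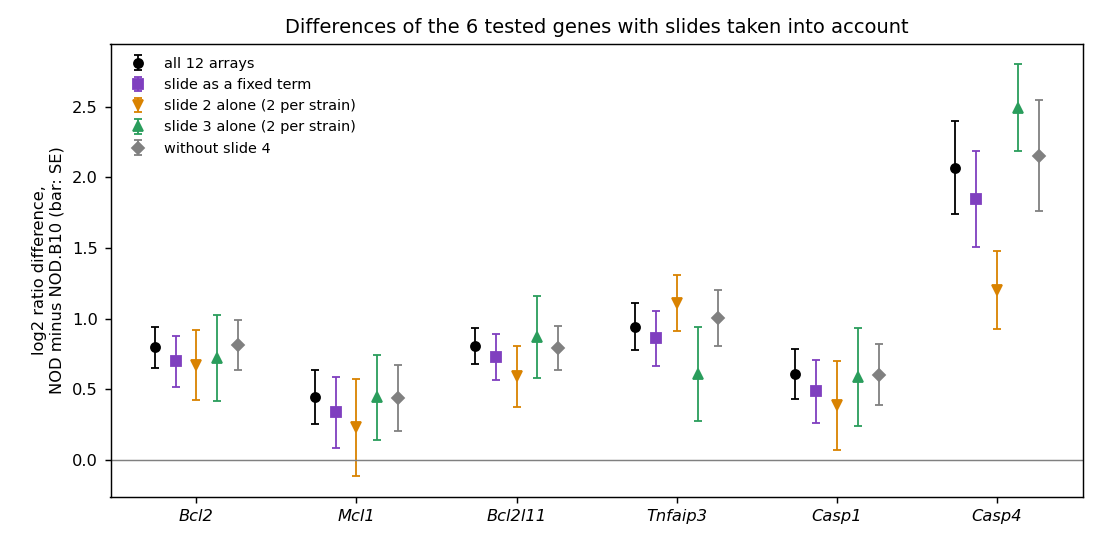
Fitted log2 ratio difference between NOD and NOD.B10 with its SE for the 6 tested genes, over all 12 arrays, with slide fixed in the model, within slide 2 or slide 3 alone (2 arrays per strain each), and without slide 4. All points lie above 0, and for Casp4 slide 2 gives 1.20 and slide 3 gives 2.49.

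Within slides the direction held for each of the 6 genes. Bcl2 differed by 0.67 on slide 2 and by 0.72 on slide 3, Bcl2l11 by 0.59 and 0.87, and Casp1 by 0.39 and 0.58. Tnfaip3 differed by 1.11 and 0.61, Mcl1 by 0.23 and 0.44, and Casp4 by 1.20 and 2.49. None of these passed limma with 2 arrays per strain (0 of 6 on either slide, with 4 on slide 2 and 2 on slide 3 at an unadjusted p under 0.05; 38 genes in all were called higher on slide 2 and 1 on slide 3). With slide as a fixed term 4 of the 6 passed, namely Bcl2 (0.70, adjusted p = 0.0244), Bcl2l11 (0.73, 0.0124), Casp4 (1.85, 0.00583) and Tnfaip3 (0.86, 0.0134).

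Within NOD the same arrays were low for several of these genes. Replicates 3 and 5 were the 2 lowest NOD arrays for Bcl2, Bcl2l11, Mcl1 and Casp1, and replicate 3 was also the lowest for Casp4 and replicate 5 for Tnfaip3. Ptprc, the leukocyte common antigen CD45, was lowest on the same 2 arrays, with log2 ratios of 2.51 and 2.54 against 3.80 to 4.76 on the other 4 NOD arrays. Replicate 5 also had the smallest share of spots well above background in NOD (10.7%) and replicate 3 the second smallest (12.4%), close to replicate 4 (12.9%). By the brightness factor replicate 5 was the dimmest NOD array (1.07) and replicate 4 the next (1.40), below replicate 3 (1.61). The deviation of each gene from its strain mean was set against that of 3919 other tested genes over the 12 arrays, as a description without a test, since the best of many were taken. Nearest to Bcl2 were Casp1 (Pearson r 0.98) and Cd48, a leukocyte surface protein (0.97). Nearest to Casp1 were Bcl2 and Gmfg (0.97), and nearest to Casp4 were the monocyte chemokine Ccl8 (0.97) and the interleukin-18 receptor chain Il18r1 (0.96). Icosl (0.95) and St8sia4 (0.94) were nearest to Bcl2l11, Fcrl1 (0.94) and Frmd8 (0.94) to Mcl1, and Mta2 (0.95) and Gemin5 (0.95) to Tnfaip3. Spearman's rho of these pairs ran from 0.73 to 0.92. Between the 6 genes themselves r was between 0.43, for Casp4 and Tnfaip3, and 0.98. The spread of each of the 6 genes was larger in NOD. For Bcl2 the SD was 0.36 in NOD and 0.05 in NOD.B10, so r rests mostly on the 6 NOD arrays. These deviations share the arrays and their brightness, with which each gene's deviation had an r of 0.32 to 0.65, and with that of Ptprc an r of 0.58 to 0.91.

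**Figure D4:**
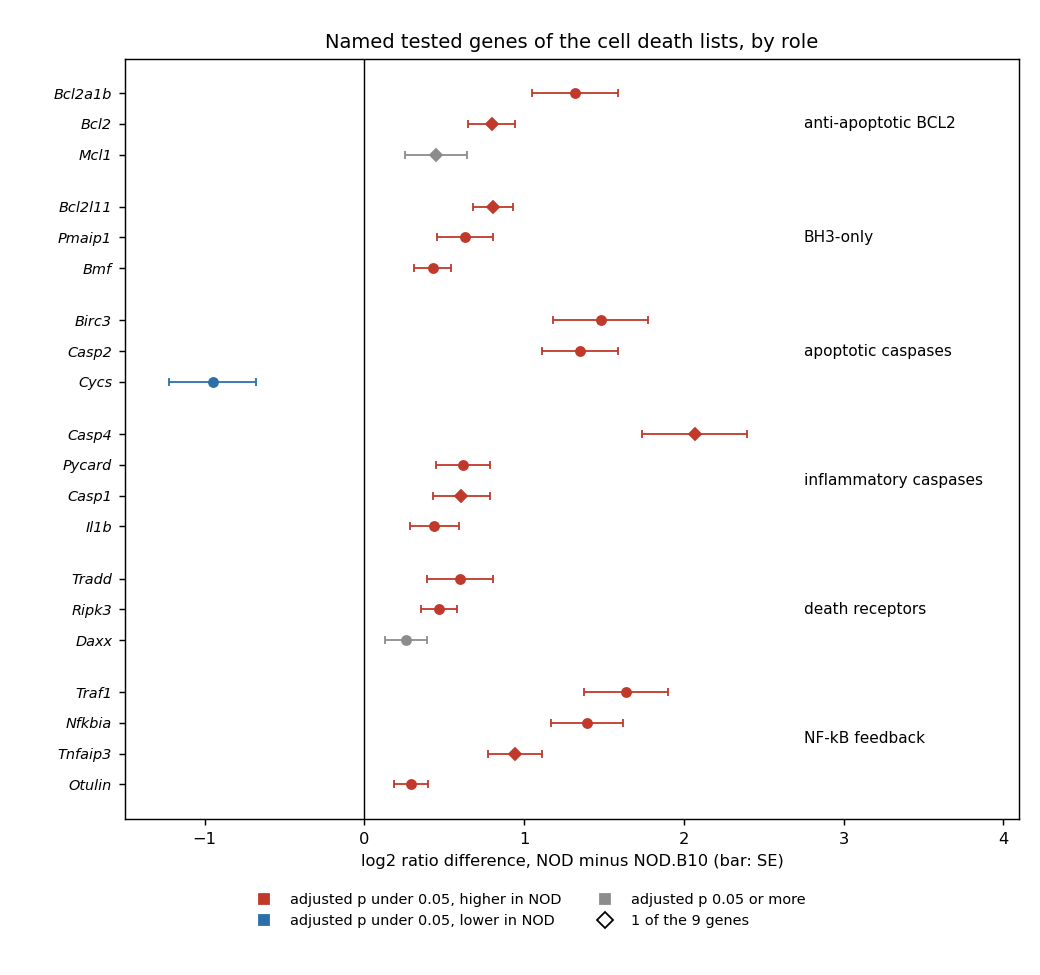
Fitted log2 ratio difference (NOD minus NOD.B10) with its SE for the tested genes among the 9 and up to 3 further genes of each cell death list by smallest p, grouped by role, with those of the 9 genes that were tested as diamonds and colours by adjusted p. Casp4 lies farthest to the right at 2.07 and, of the genes plotted, Cycs alone lies below 0, at -0.95.

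The 9 genes were set among 81 genes of the same pathways, of which 76 had a probe and 28 were tested. Of these 19 were higher (5 of them among the 9 genes), 2 were lower and 7 did not pass, with a median difference of 0.51 against -0.01 over all genes tested. Again 18 of the 28 were dark (not well above background) on all NOD.B10 arrays, against 31.1% of all genes tested. Of these 18, 13 were called higher, against 349 of the 1220 such genes, and their direction was in part fixed by the filter. Of the 10 that were well above background on at least 1 NOD.B10 array, 6 were higher and 1 lower, against 14.3% and 22% of such genes. Without slide 4 the calls fell to 11 higher and 1 lower, where 12.9% of all genes tested were called higher and 13.7% lower. With slide fixed in the model they fell to 10 and 0, against 9.21% and 9.03% of all genes tested. Without the filter, the median difference of the 76 genes was 0.05. Of these 76, 19 were higher and 3 lower, against 4.07% and 8.19% of all 17016 genes. With the Cy5 share of each array as a covariate, 0 of the 28 were called and their median difference was 0.03.

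Among survival genes Bcl2a1b, of the A1 family that is strong in leukocytes, differed by 1.32 ± 0.27 (adjusted p = 0.00238, limma). It was above background on 5 NOD arrays and no NOD.B10 array, with a bound of only 1.004-fold, and its near-identical copies may bind the same probe. The BH3-only genes were higher in 3 of 3 tested: beside Bcl2l11 these were Pmaip1, which encodes NOXA (0.63), and Bmf (0.43), both dark on all NOD.B10 arrays and without a bound above 1. Pmaip1 lost the call with slide fixed in the model (0.42, adjusted p = 0.156) and without slide 4 (0.60, adjusted p = 0.0561). Bmf lost it likewise (0.33, adjusted p = 0.144, and 0.35, adjusted p = 0.0764) and with median centring (0.38, adjusted p = 0.0529), a value of -0.06 relative to the shift of all genes. Of the pore formers, 0 of 2 with a probe could be tested.

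Among apoptotic caspases, their activators and inhibitors, 4 of 6 tested genes were higher and 2 lower. Casp2, a caspase tied to the response to DNA damage, was well above background on 6 NOD and 5 NOD.B10 arrays and was 2.55-fold higher (log2 1.35 ± 0.24, adjusted p = 0.000944, limma). Birc3, an inhibitor of apoptosis and NF-kB target, was higher with a bound of 2.13-fold. Cycs, the cytochrome c gene, was lower by the ratio (log2 -0.95 ± 0.27, adjusted p = 0.0156, limma), with NOD.B10 replicate 1 above the others of its strain. Its median net Cy5 was not lower, at 60.75 units in NOD and 23 in NOD.B10. The call was lost with slide fixed in the model (-0.97, adjusted p = 0.0978), with the processed ratio (-0.31, 0.612) and with Cy5 alone (-0.15, 0.539). With median centring it turned to 0.68, which is 0.25 above the shift of all genes.

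All 4 tested genes of the inflammasome list were higher. Beside Casp4 and Casp1 these were Pycard, the adaptor ASC, at 0.62 ± 0.17 (adjusted p = 0.0117, limma), above background on 6 NOD and 2 NOD.B10 arrays, and Il1b, the substrate of caspase-1, at 0.44 ± 0.16 (adjusted p = 0.0413). Pycard lost its call with the processed ratio (1.36, adjusted p = 0.0714) and with Cy5 alone (0.18, adjusted p = 0.241). With Cy5 alone, with slide fixed in the model and without slide 4, 2 of the 4 genes were called. Il1b was above background on 4 NOD arrays only, with a bound of 0.74, which is below 1. It kept its call when NOD replicate 3, 5 or 6 was left out. It lost the call without any other single array (adjusted p = 0.0537 to 0.0819, limma) or with slide fixed in the model (0.162). The other 9 genes of this list that have a probe, among them Nlrp3, Aim2, Gsdmd and Il18, were too dim to test.

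Of 16 death receptor genes 5 were tested and 2 were higher. Ripk3, the kinase of necroptosis, differed by 0.47 ± 0.12 (adjusted p = 0.00687, limma) and was above background on 4 NOD arrays only. Its bound was 0.70, which is below 1. Tradd, the adaptor of the TNF receptor, differed by 0.60 ± 0.21 (adjusted p = 0.0366) and was measured on 6 NOD and 4 NOD.B10 arrays. Its call was lost without NOD replicate 1, 2 or 4 or NOD.B10 replicate 2, 3, 5 or 6 (adjusted p = 0.0532 to 0.0796) and with slide fixed in the model (0.261). Daxx stood at 0.26 ± 0.13 and did not pass (adjusted p = 0.138).

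Of 7 tested genes of NF-kB feedback and its adaptors 4 were higher. Traf1, an NF-kB-induced adaptor, was above background on 6 NOD and 0 NOD.B10 arrays, with a bound of 1.27-fold (fitted 1.64 ± 0.26, adjusted p = 0.000533, limma). Nfkbia, which encodes the inhibitor IkB alpha and is induced by NF-kB, was above background on 6 NOD and 2 NOD.B10 arrays and differed by 1.39 ± 0.23 (adjusted p = 0.000553). Its strains did not overlap, with 0.38 to 1.95 in NOD and -0.18 to 0.31 in NOD.B10. Otulin, a deubiquitinase, stood at 0.29 ± 0.11 (adjusted p = 0.0471), a call that held without NOD replicate 3 or 5 and was lost without any other single array (adjusted p = 0.0594 to 0.101) and with slide as a fixed or random term (0.254 and 0.0504). Traf2, Traf3 and Nfkbib did not pass.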

How the data were processed

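Islet (Cy5) and reference (Cy3) RNA of 12 mice were read on 12 arrays without dye swap. The deposited files give, for each spot, its median intensity and that of its background in scanner units; per the file headers the images were read by Feature Extraction 10.5.1.1. The files also hold processed intensity values and their log10 ratio, made by the authors' software with background subtraction, detrending and dye normalization per the file headers. The deposited series table holds log2 ratios that equalled processed Cy5 over processed Cy3 (within 0.001) for 100% of the probes spotted singly. Its centring is unstated, and array medians ran from -0.285 to -0.062.

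Background was removed by normexp with an offset of 50, followed by loess within arrays, in limma 3.58.1 under R 4.3.3, spots of a probe were averaged without outlier spots where another remained, and 24375 probes received a symbol of GRCm38.p6 through their accession, the only gene label used, so probes of these genes under other accessions are not counted. The arrays' own coordinates were not used. Probes with Cy5 well above background on at least 4 of 12 arrays were kept, the brightest per gene (3920 genes). Strains were compared by lmFit and eBayes with Benjamini-Hochberg adjustment over all 3920, checked on simulated data. Alternatives changed the scaling, offset, filter, slide term, array weights and arrays used. The genes, lists, motifs and tests were chosen with earlier results of these data known. Named are the 9 genes, up to 3 further tested genes per role list by smallest p, the 2 nearest genes of each tested gene, Ptprc and Ins2 (-3.35 in log2 ratio). Precision is limited by the number of arrays. Replicate numbers were not taken to pair the mice. A result on a further gene of the lists is not reported here.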

Additional observations from a re-analysis of the deposited data

Results flagged for a closer look

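Among 78 groups of 6 arrays checked for 1 array far from the others (a gap over 0.625 of the group's range), 3 stood out, where chance flags about 1 in 20. Bmf had a log2 ratio of 0.033 in NOD replicate 3, against 0.46 in the next lowest NOD array. Cycs stood at 0.53 in NOD.B10 replicate 1, against -0.18 in the next highest of its strain, and Gmfg at -0.055 in NOD.B10 replicate 5, against -0.25. None of the 12 probes of the 9 genes stood out in this way.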

How the results depend on the processing

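Of the genes tested, 735 were called higher and 708 lower. By median net Cy5, all 735 lay higher in NOD, while 42 of the 708 lay lower. A lower call thus mostly means lower relative to the trend of the array. Median centring called 1978 higher and 0 lower by limma (2 lower at an unadjusted p under 0.05), the scanner's processed ratio 313 lower, Cy5 alone 247 lower, no filter 1394 lower (17016 tested), and a filter on all 6 arrays of a strain 410 lower (2380 tested). The net ratio of probes bright on all arrays called 136 and 268 of 835 tested and held none of the 9 genes. Slide as a fixed term called 361 and 354, slide 2 alone 38 and 46, and slide 3 alone 1 and 1. Either slide alone called 0 of the 9 genes (4 and 2 at an unadjusted p under 0.05). The brightness covariate called 3 higher and 0 lower (157 and 138 at an unadjusted p under 0.05) and 0 of the 9 genes (0 unadjusted). It turned Casp1 (-0.24), Mcl1 (-0.068, not called in either fit), Bcl2a1b (-0.21), Pmaip1 (-0.29), Pycard (-0.12), Tradd (-0.40), Otulin (-0.021), Cd48 (-0.057) and Il18r1 (-0.15), and median centring turned Cycs (0.68). The cause was not tested. Leaving out 1 array gave 601 to 851 higher and 577 to 808 lower, and 5 to 6 of the 9 genes higher.

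Same-numbered mice had correlations of deviations between -0.15 and 0.21 over 3920 genes. These values gave no sign of pairing but cannot exclude it, as other pairs of mice were not compared. With the replicate block 638 genes were called higher and 597 lower, and 5 of the 9 genes higher. The brightness-scaled net signal and the role list counts by slide were added after seeing the data. Net signals near background limit each size given for NOD.B10.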
